A study of Mus musculus with 2 samples.

Results

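The Pi16-high fibroblasts of the injured mouse carotid artery were the cells that held at least 3 UMIs (unique molecular identifiers, each a counted transcript) of Pi16 and at most 2 UMIs of Cthrc1. They also had at least 10 UMIs of decorin (Dcn), none of the leukocyte gene Ptprc, the smooth muscle gene Myh11 or the endothelial gene Pecam1, at most 1 of Cxcl13 and at most 4 of Myoc. The members were thus chosen by their measured UMIs of these genes, so the levels of those genes describe the choice and are no finding. Of 13436 kept cells, 1935 met the limits: 303 of 5427 in the library taken 2 weeks after injury and 1632 of 8009 in the library taken 4 weeks after it.

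The study profiled cells of carotid arteries from male C57BL/6J mice, 8 weeks of age, with 10x Genomics droplets. Every group carried the same wire injury, a scrape of the lining after which the inner wall thickens, and vessels were taken on day 14 or day 28. The series design gives n = 18 per time, but each time is 1 pooled library, so no difference between times has a replicate check and no cell can be traced to a mouse. Uninjured vessels were not analysed here. The labels call the tissue carotid artery in most places and aortic grafts in another, and they name both the left and the right carotid. They describe the adventitia as dissected away from the media and neointima, without saying which part was digested with papain. Live nucleated cells were then sorted. Position in the wall was not measured, so the cells are named here by Pi16 and not by the adventitia.

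Fibroblasts with Pi16, a secreted peptidase inhibitor, are known from the outer sheath of vessels in many organs, where they share CD34, Ly6a (Sca-1) and often DPP4 with progenitor-type mesenchymal cells. They are known for a loose matrix rich in hyaluronan and elastic microfibrils, and for cytokines that call in leukocytes. Cthrc1 is a secreted glycoprotein of fibroblasts that lay down collagen after injury, and the limit leaves out cells with more than 2 UMIs of it. Of members, 22.4% at 2 weeks and 20% at 4 weeks held a UMI of Cthrc1, and the rule sets no limit on collagen genes.

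The libraries listed 5864 and 8565 barcodes with 78773018 and 83753250 UMIs. Members held 5352580 UMIs at 2 weeks and 20413117 at 4 weeks. The median member was deeper at 2 weeks (17413 UMIs and 4261 genes) than at 4 weeks (12479 UMIs and 3514.5 genes), and the median mitochondrial shares were 1.75% and 2.00%. The libraries shared 8 barcodes, of which 2 were members in either library and 0 in both. Levels are given as CPM (counts of a gene scaled to a common library total), taken over all UMIs of the cells of a population in 1 library, and ratios as log2 of 4 weeks over 2 weeks. All intervals are 95% intervals that cover counting error only, not the spread between mice.

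Pi16-high fibroblasts made up 5.58% of kept cells at 2 weeks (exact binomial interval 4.99% to 6.23%) and 20.4% at 4 weeks (19.5% to 21.3%). Among cells that met every limit other than those on Pi16 and Cthrc1, called stromal cells here, they were 303 of 723 (41.9%, interval 38.3% to 45.6%) and 1632 of 2337 (69.8%, interval 67.9% to 71.7%). The share of stromal cells with at least 3 UMIs of Pi16 was 78.3% at 2 weeks and 76.6% at 4 weeks. The Cthrc1 limit removed 263 of 566 Pi16-positive stromal cells at 2 weeks (46.5%, interval 42.3% to 50.7%) and 157 of 1789 at 4 weeks (8.78%, interval 7.51% to 10.2%). The cells it removed were deeper than members, with medians of 28107 and 15801 UMIs, and the limit is on UMIs without regard to depth. These counts rest on the genes of the rule and are a description. Without the Cthrc1 limit the shares of kept cells were 10.4% and 22.3%. The members' share in the sorted suspension and their share in the vessel cannot be told apart.

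Few members lay at the edge of the rule on Pi16. Pi16 ran from 3 to 515 UMIs per member at 2 weeks, with a median of 39, and from 3 to 380 at 4 weeks, with a median of 41. Just outside the limit, 19 and 108 cells held 2 UMIs of Pi16, and just inside, 13 and 74 held 3. At the Cthrc1 limit, 28 and 97 members held 2 UMIs of Cthrc1, and 34 and 47 cells outside held 3. Free RNA was read from leukocytes, the cells with Ptprc and at most 1 UMI of Dcn, which should lack fibroblast genes. Of these, 27.7% and 35.0% held at least 1 UMI of Pi16, and 1.16% and 1.35% held the 3 that the rule asks. Their median depths were 7555 and 5199 UMIs.

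The other markers of the label were present in the members and low in leukocytes, taken over all members together. Against the other stromal cells, 1 of the 6 markers (Procr) was at least 2-fold higher in both libraries. The median log2 ratio of members over other stromal cells was 0.57 at 2 weeks and 1.72 at 4 weeks, with Pi16 of the rule among the 6. Dermatopontin (Dpt), a matrix protein that binds decorin, stood at 2012 CPM in members at 2 weeks and 2511 CPM at 4 weeks, against 18.75 and 31.68 CPM in leukocytes. Gfpt2, which feeds the hexosamine pathway, stood at 593.7 and 499.5 CPM, against 5.34 and 5.61 CPM. Pla1a, a phospholipase for phosphatidylserine, stood at 222 and 429 CPM, a ratio of 0.95 (0.86 to 1.04). Procr, the receptor for protein C, stood at 192 and 316 CPM, and suprabasin (Sbsn), a secreted protein, at 182 and 315 CPM. These 3 genes were higher at 4 weeks and below a 2-fold difference. With every cell thinned to 2700 UMIs, Dpt was seen in 95.7% and 97.8% of members, Pla1a in 29.3% and 49.0%, Procr in 27.0% and 44.7%, and Sbsn in 17.3% and 27.4%. The unthinned shares were 99.3% and 99.5% for Dpt, 48.5% and 66.8% for Pla1a, 55.1% and 68.4% for Procr, and 39.9% and 42.8% for Sbsn. In thinned leukocytes the same genes were seen in 4.85% and 8.63% (Dpt), 0.777% and 1.01% (Pla1a), 1.40% and 1.35% (Procr), and 2.29% and 1.85% (Sbsn). Thinning left out 3 and 33 members. The pooled levels hide a split: in sub-clusters 2, 4 and 5 of the members, described at the end, Pla1a stood between 10.8 and 92.0 CPM and Sbsn between 9.69 and 44.9 CPM. In sub-clusters 1 and 3 Pla1a stood between 395 and 793 CPM and Sbsn between 191 and 980 CPM, while Dpt was at least 1360 CPM in all 8.

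**Figure D1:**
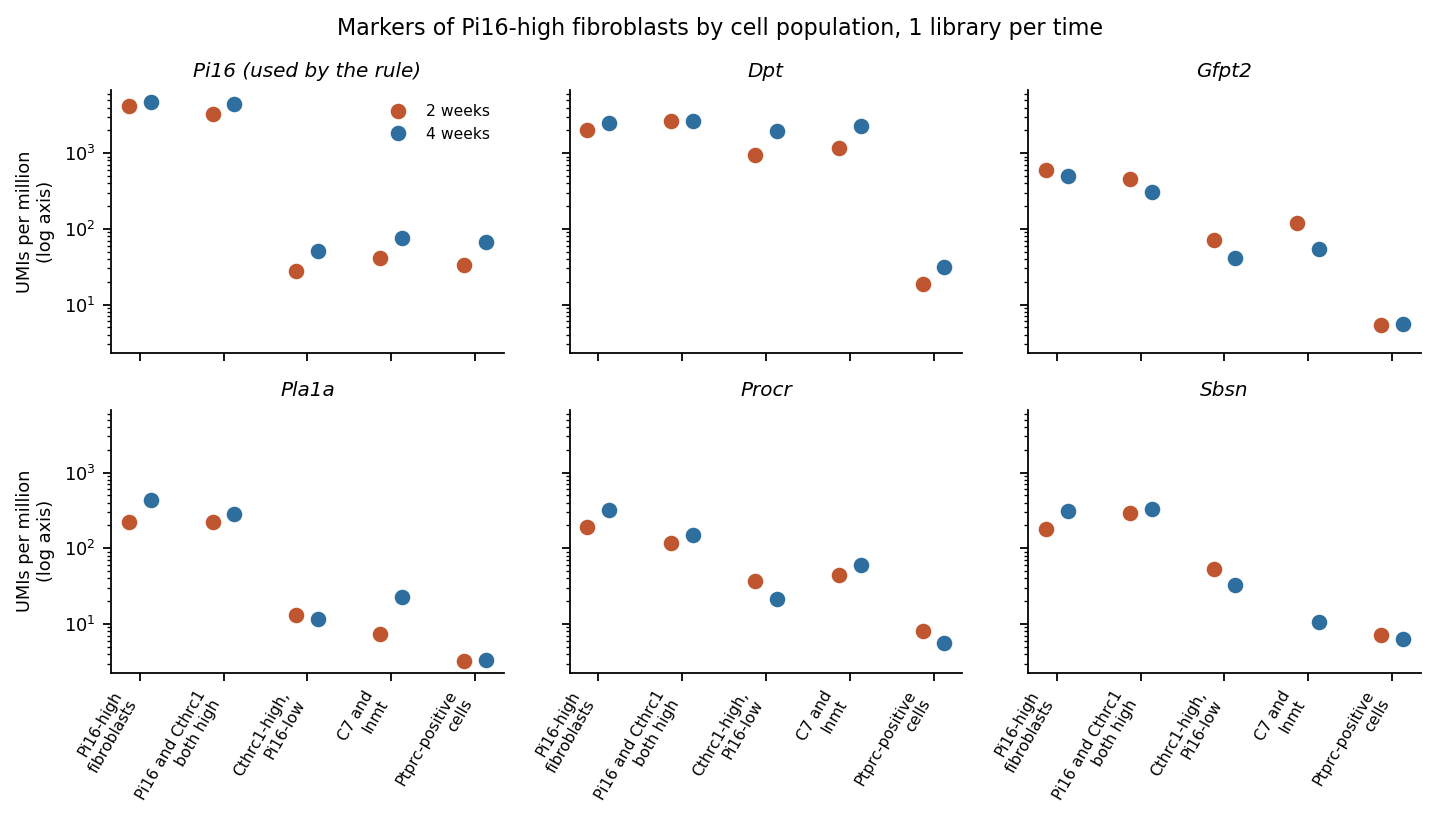
Level of the 6 marker genes in each cell population of the 2 libraries, in CPM on a log axis, with 1 point per library; Pi16 is a gene of the rule, and a level of 0 (Sbsn in C7 and Inmt cells at 2 weeks) has no point. Members stand above leukocytes for every marker, and cells high in both Pi16 and Cthrc1 stand near the members.

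Markers of other cell types differed widely in level in the members. Endothelial markers summed to 1.87 and 2.01 CPM over 8 genes, with Pecam1 at 0 by the rule, and adipocyte markers to 0.374 and 0.343 CPM over 6 genes, with Adipoq and Lep at 0. Smooth muscle markers summed to 76.6 and 24.8 CPM, against 308.2 and 68.7 CPM in leukocytes. Macrophage markers summed to 179 and 57.3 CPM, against 12578 and 2690 CPM in leukocytes, and parathyroid markers to 145 and 43.8 CPM, against 1563 and 41.8 CPM. Both sums were higher at 2 weeks in members and in leukocytes alike, and their part in the results between times was not tested. Pericyte markers summed to 301 and 188 CPM, mostly Abcc9 (185 and 130 CPM) and Kcnj8 (104 and 50.6 CPM), with Higd1b at 0, and were above the 40.1 and 19.2 CPM of leukocytes. Schwann cell markers summed to 389 and 366 CPM, mostly Pmp22, with Sox10 at 0, against 116 and 77.3 CPM in leukocytes. Tendon-type markers summed to 65.8 and 113 CPM, mostly Thbs4, against 4.94 and 2.34 CPM. Of haemoglobin UMIs in members, 1 cell held 98.7% at 2 weeks and 1 cell 79.7% at 4 weeks, so haemoglobin genes are not described between times.

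Members were first set against the other stromal cells of the same library, 420 at 2 weeks and 705 at 4 weeks. The rule drew this contrast, so it is a description with no test. Cells high in both Pi16 and Cthrc1 were 263 of those 420 and 157 of those 705, and cells with C7 and Inmt were 21 and 246, so the other stromal cells were a different mixture at each time. Of 2911 genes compared, 8 were at least 2-fold higher in members in both libraries (0.275% of genes) and 19 at least 2-fold lower (0.653%).

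Of the 8 genes higher in members, 3 (Edn1, Thbd and Procr) are best known from the vessel lining. Smpd3, a neutral sphingomyelinase (chr8:106252548-106337988, minus strand), stood at 137 CPM in members and 22.4 CPM in other stromal cells at 2 weeks, and at 129 and 20.9 CPM at 4 weeks, ratios of 2.61 and 2.63. Endothelin-1 (Edn1), a vasoconstrictor peptide, had ratios of 1.20 and 1.22, with 77.5 and 69.5 CPM in members. Thrombomodulin (Thbd), the partner of Procr in protein C activation, had ratios of 1.23 and 1.16, with 197 and 152 CPM in members. Procr itself had ratios of 1.02 and 1.96. Of these, Edn1 was seen in 32.8% of members at 4 weeks and Thbd in 71.9% and 60.4% at 2 and 4 weeks, without thinning. Pcolce2, which enhances the trimming of procollagen, stood at 1001 and 1397 CPM in members and 408 and 603 CPM in other stromal cells. Adamtsl3, a matrix protein related to the ADAMTS proteases, had ratios of 1.41 and 1.25, Galnt15, which starts O-linked glycans, 1.83 and 1.08, and Fez1, a kinesin adaptor, 1.03 and 1.08.

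The 19 genes lower in members included matrix, contractile and chemokine genes. Osteopontin (Spp1) stood at 5.04 CPM in members and 153 CPM in other stromal cells at 2 weeks, and at 15.7 and 186 CPM at 4 weeks. Smooth muscle actin (Acta2) stood at 40.0 against 238 CPM and at 13.6 against 76.9 CPM. Both Spp1 and Acta2 were lower in members than in leukocytes, which held 202 and 85.9 CPM of Spp1 and 138 and 27.9 CPM of Acta2. Thrombospondin-1 (Thbs1) had ratios of -2.13 and -3.80, and the neutrophil chemokine Cxcl5 of -3.63 and -2.33. Matrix genes lower in both libraries were Col8a1 (-2.02 and -1.51), Col5a3 (-2.32 and -1.37), Col12a1 (-1.59 and -1.20), Thbs4 (-1.18 and -1.24) and the protease inhibitor Timp1 (-1.31 and -1.21). C1qtnf3, Apod and the actin crosslinker Actn1 were lower as well.

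Whole lists differed in how they sat against the other stromal cells. The list of adventitial progenitor genes had a median ratio of 0.17 at 2 weeks and 1.14 at 4 weeks over 32 compared genes, against 0.01 and 0.02 for all genes. That list holds Pi16, a gene of the rule, and the 5 other markers of the label, and the TGF-beta response list holds Cthrc1, so these medians are in part drawn from the choice of the cells. The list of parenchymal-type fibroblast genes, which are known from fibroblasts away from the vessel sheath, had medians of 0.30 and -0.87 over 15 genes. Within it, Inmt (2.53 and -0.71), Fmo2 (1.73 and -0.91) and Gdf10 (1.36 and -1.05) were higher in members at 2 weeks and lower at 4 weeks. Fibrillar collagen and fibronectin genes had medians of -0.94 and -0.91 over 10 genes, and genes of the TGF-beta response of -0.91 and -0.99 over 13.

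**Figure D2:**
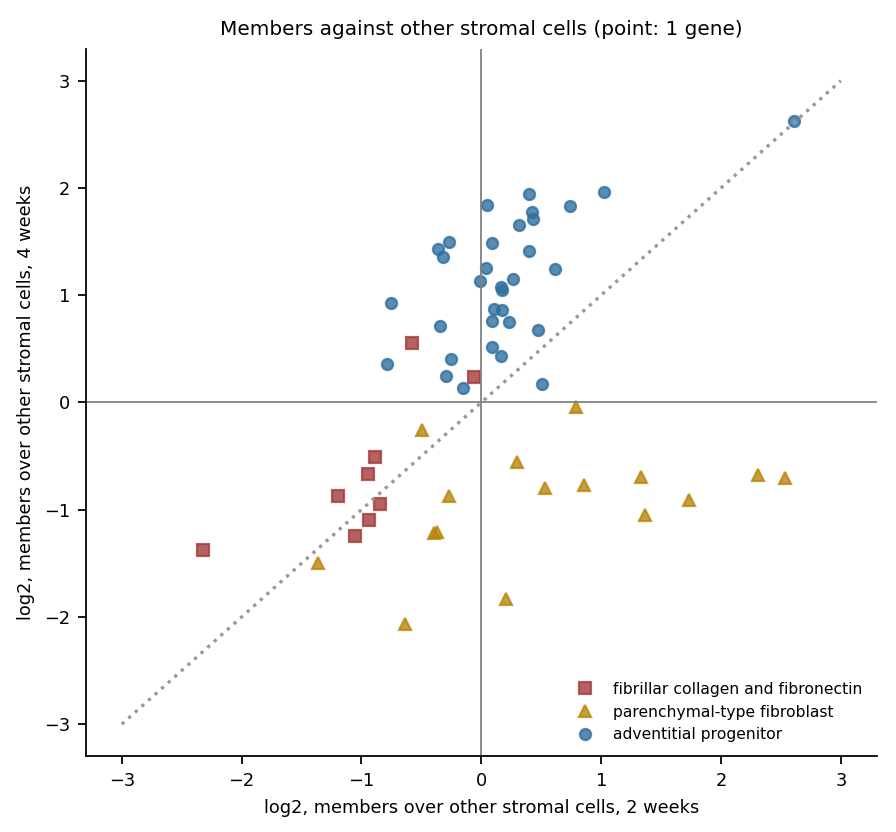
Each point is 1 gene, with its log2 ratio of members over other stromal cells at 2 weeks on the x axis and at 4 weeks on the y axis; the dotted line marks equal ratios. The points are genes compared between the times, without Pi16. The list of adventitial progenitor genes had medians of 0.17 at 2 weeks and 1.14 at 4 weeks. These medians are over the 32 genes compared against other stromal cells, Pi16 included, and are not those of the points. Most fibrillar collagen genes lie below 0 at both times.

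Between the times, within Pi16-high fibroblasts, 3101 genes were compared, those with at least 100 UMIs in members and 50 CPM in either library. Of these, 63 were at least 2-fold lower at 4 weeks (2.03%) and 8 at least 2-fold higher (0.258%), and the median ratio of all 3101 was 0.04. The 63 include 4 haemoglobin genes, whose UMIs came mostly from 1 cell in each library. Without the leading cell of each gene, the ratios of these 4 were above 0, from 0.89 to 1.35. The lower genes included stress-response, chemokine, hyaluronan matrix and fetal growth genes. The higher genes were a mixed group of secreted, signalling and matrix genes. No test between times is possible with 1 library each, so these are differences between 2 libraries.

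The largest ratio above 0 was that of Ramp1 (chr1:91179822-91225196, plus strand), which pairs with the receptor for the nerve peptide CGRP. Ramp1 stood at 23.9 CPM in members at 2 weeks and 97.6 CPM at 4 weeks, a ratio of 2.03 (1.77 to 2.30), and was seen in 5.67% and 20.3% of thinned members and in 21.1% and 45.5% before thinning. Leukocytes held more Ramp1 than members at both times, 223 and 149 CPM, and were lower at 4 weeks. Igfbp6 (chr15:102144362-102149511, plus strand), which binds insulin-like growth factor II, was the most abundant of the higher genes, at 1116 and 2282 CPM, a ratio of 1.03 (0.99 to 1.07). It was seen in 74.7% and 93.0% of thinned members (88.4% and 97.0% before thinning), and stood at 20.7 and 43.6 CPM in leukocytes.

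Dact2, a regulator of Wnt and TGF-beta signalling, stood at 25.6 and 64.1 CPM (1.32), and Prdm8, a transcriptional regulator, at 29.3 and 64.3 CPM (1.13). C7, a terminal complement component (chr15:4988762-5063740, minus strand), stood at 49.0 and 104 CPM (1.08). In the other stromal cells C7 stood at 9.89 and 166 CPM. The cartilage-type matrix genes Cilp (103 and 209 CPM, 1.03) and Thbs4 (41.3 and 97.2 CPM, 1.24) were higher as well. Cilp held UMIs in 22.4% and 22.5% of members. Thbs4 was seen in fewer, 4.95% and 10.2% of them, and 1 cell gave 52.9% of its UMIs at 2 weeks. The higher genes also held Gm26802, with a ratio of 1.46, which is named because of the small count. Among 13 other settings, Ramp1 stayed at least 2-fold higher in 13, Dact2 and C7 in 12 each, Thbs4, Prdm8 and Igfbp6 in 9 each, and Cilp in 8. Among members of 5000 to 15000 UMIs, C7 had a ratio of 0.28.

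**Figure D3:**
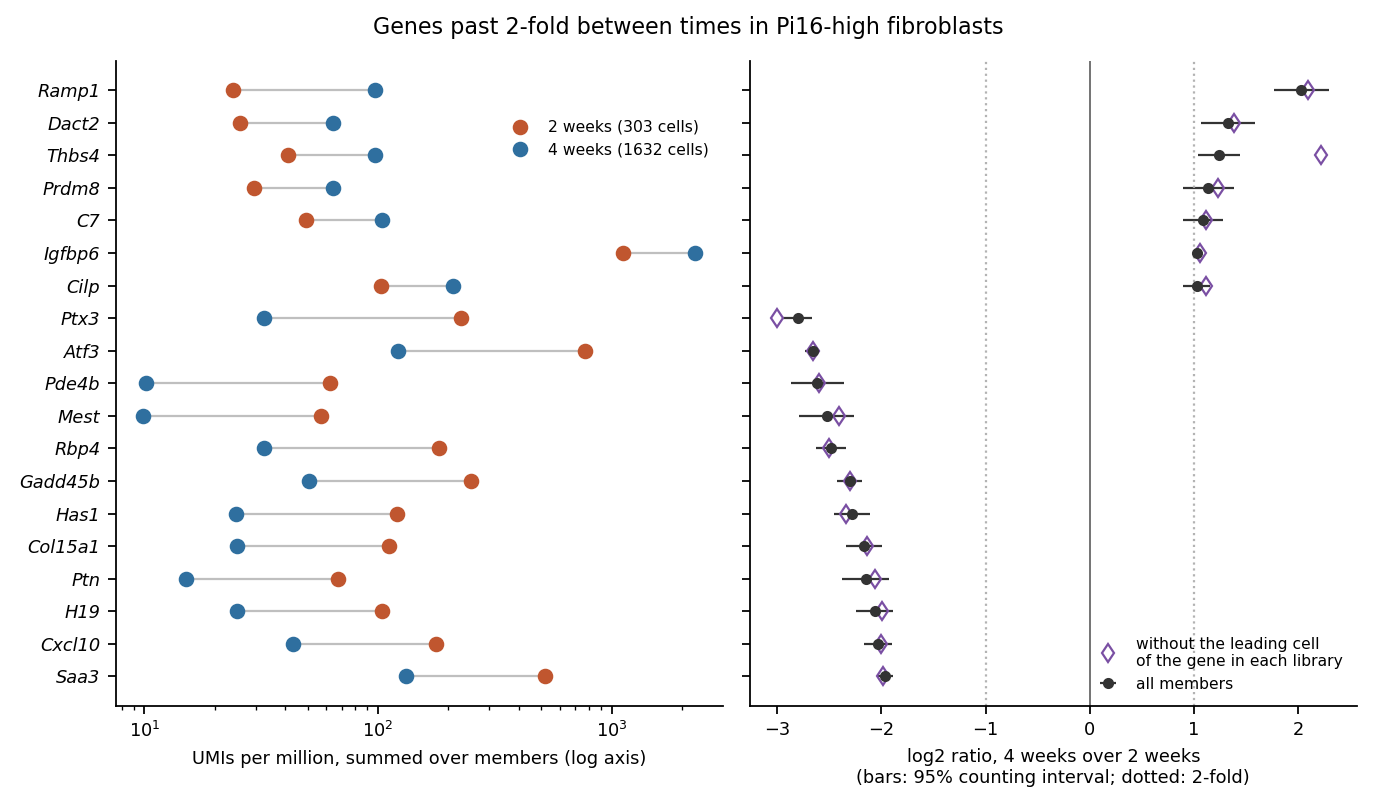
Left, the level of each named gene in members of the 2 libraries, in CPM on a log axis. Right, its log2 ratio of 4 weeks over 2 weeks with the 95% counting interval, and open diamonds for the ratio without the leading cell of the gene in each library. Thbs4 is the gene whose ratio moved most, to 2.22.

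Among hyaluronan matrix genes, 3 stood at least 2-fold lower at 4 weeks. Pentraxin 3 (Ptx3; chr3:66219910-66225805, plus strand), which crosslinks hyaluronan, stood at 226 CPM in members at 2 weeks and 32.4 CPM at 4 weeks, a ratio of -2.81 (-2.94 to -2.67). The hyaluronan synthase Has1 (chr17:17843323-17855205, minus strand) stood at 121 and 24.8 CPM, a ratio of -2.28 (-2.45 to -2.11). Has1 was seen in 24.0% and 5.0% of thinned members (55.4% and 17.2% before thinning), and in 0.505% and 0% of thinned leukocytes (0 of 2375 at 4 weeks, exact upper limit 0.155%). Tnfaip6, which moves heavy chains onto hyaluronan, stood at 450 and 136 CPM (-1.73). Leukocytes held at most 7.22 CPM of any of these 3 genes. The list as a whole did not share this: 3 of 10 compared genes were at least 2-fold lower, 0 higher, and the median was -0.32. The enzymes that make the sugar precursors lay on both sides of 0, with Ugdh at 543 and 411 CPM (-0.40), Uap1 at 296 and 402 CPM (0.44) and Gfpt2 at -0.25. The other 10 of the 20 listed genes were below the minimum for comparison.

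The same 3 genes were lower at 4 weeks in the neighbouring stromal cells. In cells high in both Pi16 and Cthrc1 the ratios were -1.28 for Ptx3, -1.76 for Has1 and -1.74 for Tnfaip6. In all other stromal cells they were -2.27, -2.55 and -2.47. Whether the ratios differ between populations was not tested.

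Of 21 compared inflammatory genes, 9 were at least 2-fold lower at 4 weeks and 0 at least 2-fold higher. Of all compared genes, 2.03% were at least 2-fold lower. In the list 18 of the 21 were below 0, the median was -0.82, and 15 of the 36 listed genes were below the minimum. With sub-clusters of the members weighted equally the list median was -0.31. The list median was -0.68 in all other stromal cells and -0.47 in cells high in both Pi16 and Cthrc1. Cxcl1, a neutrophil chemokine, stood at 956 and 396 CPM (-1.27), and Cxcl12, a chemokine of stromal niches, at 625 and 234 CPM (-1.42) against at most 7.95 CPM in leukocytes. Cxcl10, which draws T cells and is known as an interferon target, stood at 176 and 43.2 CPM (-2.03). With sub-clusters weighted equally the ratio of Cxcl10 was -0.92, below 2-fold. Cxcl2, a neutrophil chemokine, stood at 160 and 19.4 CPM (-3.04), and Saa3, an acute phase protein, at 518 and 132 CPM (-1.97). Leukocytes held far more Cxcl2 than members at both times, 3356 and 336 CPM. They held more Saa3 than members at 2 weeks (2398 CPM) and less at 4 weeks (36.5 CPM). Both genes were thus lower at 4 weeks in leukocytes too, and the part of free RNA in these 2 results was not tested. For Saa3, 1 cell gave 23.9% of the UMIs at 2 weeks and 1 cell 24.7% at 4 weeks. Regulators of the NF-kappa-B pathway were lower too, with Nfkbia at 946 and 464 CPM (-1.03) and Nfkbiz at 349 and 148 CPM (-1.23). Leukocytes held levels close to these at 2 weeks (946 CPM of Nfkbia and 321 CPM of Nfkbiz) and less at 4 weeks (404 and 81.9 CPM). Ccl7 (-1.12) and the prostaglandin synthase Ptgs2 (-1.07) were the rest. The eotaxin Ccl11, at 271 and 303 CPM (0.16), and Csf1, at 148 and 142 CPM (-0.06), were not among them.

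Of the 21 compared inflammatory genes, 14 have a promoter in the RefSeq table (GRCm38.p6), which runs from 250 bases before to 50 after the start of a gene. A match to the kappa-B letters (GGGA and TTCC with any 2 bases between them) on either strand lay in 5 of these 14 (35.7%), against 39 of 2381 compared genes (1.64%) and 482 of all 32851 promoters (1.47%). The 5 are Cxcl1, Cxcl2, Cxcl10, Nfkbia and Csf1, of which Csf1 was below a 2-fold difference. The motif and the list were chosen with the results known, so this is a description of letters and not of binding. The 4 promoters with a match among the lower genes are shown for 200 bases before the start, in the 5′ to 3′ direction of the gene, with the matched letters in capitals. In Cxcl2 and Cxcl1 the capitals hold 2 overlapping matches, and in Nfkbia they are the reverse complement.
Cxcl2 (chr5:90903699-90903898, plus strand): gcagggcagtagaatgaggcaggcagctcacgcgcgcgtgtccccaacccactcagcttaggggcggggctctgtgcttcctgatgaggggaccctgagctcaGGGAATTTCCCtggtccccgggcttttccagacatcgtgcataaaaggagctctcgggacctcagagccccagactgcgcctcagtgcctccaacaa
Cxcl10 (chr5:92348890-92349089, minus strand): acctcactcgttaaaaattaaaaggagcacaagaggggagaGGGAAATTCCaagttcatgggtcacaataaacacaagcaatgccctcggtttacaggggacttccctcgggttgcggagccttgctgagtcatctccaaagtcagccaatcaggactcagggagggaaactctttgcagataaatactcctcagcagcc
Cxcl1 (chr5:90891045-90891244, plus strand): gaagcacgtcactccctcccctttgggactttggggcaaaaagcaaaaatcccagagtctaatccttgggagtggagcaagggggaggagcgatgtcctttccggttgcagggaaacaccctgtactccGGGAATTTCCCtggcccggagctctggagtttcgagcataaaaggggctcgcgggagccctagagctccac
Nfkbia (chr12:55492648-55492847, minus strand): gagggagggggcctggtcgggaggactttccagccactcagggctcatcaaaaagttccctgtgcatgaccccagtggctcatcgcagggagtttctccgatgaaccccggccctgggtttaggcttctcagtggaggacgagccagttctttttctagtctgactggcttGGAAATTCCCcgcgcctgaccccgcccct
The match nearest the start lies 29 bases before it in Nfkbia, 70 in Cxcl1, 96 in Cxcl2 and 159 in Cxcl10. For the immediate early genes described next, the letters TGACGTCA (the CRE motif, which is its own reverse complement) lay in 2 of 16 genes with a promoter (12.5%; Btg2 and Dusp1), against 4.07% of compared genes and 1.79% of all promoters.

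Immediate early genes, which cells switch on within minutes of a stimulus, were lower at 4 weeks in all 20 compared genes of the list. Of these, 5 were lower by at least 2-fold, and the median was -0.64. The neighbouring stromal cells shared this. The list median was -0.63 in all other stromal cells (17 of 20 below 0) and -0.48 in cells high in both Pi16 and Cthrc1 (19 of 20). In C7 and Inmt cells it was -1.275 (20 of 20). Whether the populations differ was not tested. Atf3, a stress-response transcription factor (chr1:191170296-191218039, minus strand), stood at 767 and 121 CPM, a ratio of -2.66 (-2.73 to -2.59). Socs3, which dampens cytokine signalling, stood at 757 and 252 CPM (-1.59), the nuclear receptor Nr4a1 at 111 and 40.9 CPM (-1.44), and Zfp36, which speeds the decay of cytokine mRNAs, at 523 and 203 CPM (-1.36). The most abundant members had smaller ratios: Fos stood at 3365 and 2437 CPM (-0.47), Egr1 at 2454 and 1401 CPM (-0.81) and Jun at 2341 and 1985 CPM (-0.24). The list summed to 20342 and 13735 CPM in members and to 10670 and 4919 CPM in leukocytes, so it was lower at 4 weeks in leukocytes as well, and the part of free RNA in the members' values was not tested. Atf3 in leukocytes stood at 476 and 54.3 CPM. Gadd45b, a stress gene outside the list, stood at 250 and 50.6 CPM in members (-2.30) and at 260 and 113 CPM in leukocytes, and Pde4b, which breaks down cyclic AMP, at 62.4 and 10.2 CPM (-2.61) and at 186 and 74.6 CPM.

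Protein-folding and interferon genes showed the same direction in a few members. Of 10 compared heat shock genes, 2 were at least 2-fold lower, the endoplasmic reticulum chaperone Hspa5 (1728 and 820 CPM, -1.08) and Dnajb1 (153 and 69.3 CPM, -1.14), and the median was -0.13. Of 10 compared interferon genes, 2 were at least 2-fold lower, Irf1 (156 and 56.5 CPM, -1.47) and Irf7 (-1.07), and the median was -0.24. None of either list was at least 2-fold higher.

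**Figure D4:**
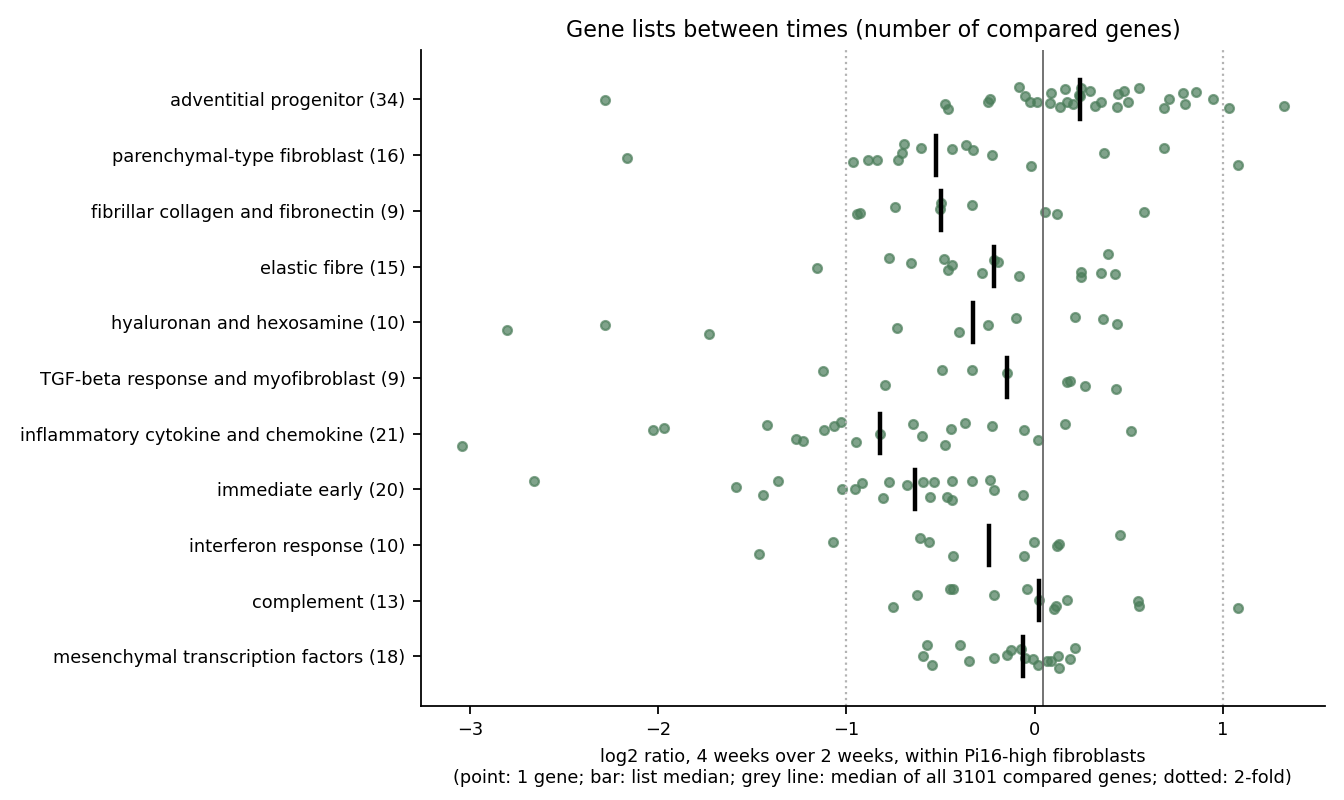
Log2 ratio of 4 weeks over 2 weeks for the compared genes of 11 lists, with 1 point per gene, a bar at the list median, a grey line at the median of all compared genes (0.04) and dotted lines at 2-fold. The inflammatory (median -0.82) and immediate early (-0.64) lists lie furthest to the left, and the adventitial progenitor list (0.24) lies right of the grey line.

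Of the compared fibrillar collagen and fibronectin genes, 6 of 9 stood lower at 4 weeks, without passing 2-fold. Col3a1 was at 11686 CPM in members at 2 weeks and 6136 CPM at 4 weeks (-0.93, interval -0.94 to -0.92), and Col1a1 (chr11:94936224-94953042, plus strand) at 5433 and 2825 CPM (-0.94, interval -0.96 to -0.92). Col1a2 was at 8200 and 5813 CPM (-0.50). Fibronectin (Fn1) went the other way, with 2166 and 3239 CPM (0.58). Of 9 compared genes of this list, 0 were at least 2-fold different and the median was -0.50. Among members of 5000 to 15000 UMIs (102 at 2 weeks and 1069 at 4 weeks) that median was 0.10. At 2 weeks the median depth was 22184 UMIs in sub-cluster 6 of the members and 9809 in sub-cluster 5, both described at the end. The sub-clusters within this range of depth were not counted, and the cause of the turn was not tested. The fibrillar collagen list had a median of -0.43 in cells high in both Pi16 and Cthrc1, -0.655 in all other stromal cells and 0.73 in C7 and Inmt cells. Of the other collagens, Col15a1, a basement membrane collagen of vessel walls, stood at 112 and 24.9 CPM (-2.16), while Col4a1 (-0.89) and Col4a2 (-0.96) were below 2-fold. Periostin (Postn), a matrix protein induced by TGF-beta, stood at 742 and 341 CPM (-1.12). It was the 1 gene of 9 in the TGF-beta response list past 2-fold, and the median of that list was -0.15. Among elastic fibre genes 1 of 15 was at least 2-fold lower, Mfap4 (578 and 260 CPM, -1.15). Elastin (Eln, -0.77) and fibrillin-1 (Fbn1, -0.46) stood lower by less, and fibulin-2 (Fbln2, 0.43) and Mfap5 (0.35) stood higher.

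Adventitial progenitor genes leaned the other way. Of 34 compared genes of 39 listed, 2 were at least 2-fold higher (Igfbp6 and Dact2), 1 lower (Has1), and the median was 0.24. Tenascin-X (Tnxb), which organises collagen fibrils, stood at 586 and 1063 CPM (0.86), and the proprotein convertase Pcsk6 at 278 and 485 CPM (0.80). Cd55, which guards cells against complement, stood at 314 and 461 CPM (0.55), Dpp4, a surface peptidase, at 116 and 164 CPM (0.50), and the surface protein Ly6c1 at 876 and 1074 CPM (0.29). Cd34 (975 and 1070 CPM, 0.13), Ly6a (2234 and 2638 CPM, 0.24) and Cd248 (702 and 707 CPM, 0.01), all surface proteins of mesenchymal cells, stood close together at the 2 times. Il33, an alarmin of stromal nuclei, stood at 310 and 223 CPM (-0.48). With sub-clusters of the members weighted equally the median was 0.05. The same genes had a median of -0.02 in cells high in both Pi16 and Cthrc1 and of -0.64 in all other stromal cells, and the difference between populations was not tested.

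Fetal growth genes that are imprinted, meaning read from the copy of 1 parent, were at least 2-fold lower in 2 of 9 compared genes. The median was -0.30, and 8 of the 9 were below 0. H19, a long non-coding RNA, stood at 104 and 24.9 CPM (-2.06), and Mest at 57.0 and 9.90 CPM (-2.53). In all other stromal cells H19 stood at 254 and 15.8 CPM and Mest at 126 and 11.9 CPM, and the list median was -0.59. UMIs of H19 were found in 19.8% and 7.35% of members and of Mest in 12.2% and 5.58%, with 20.3% of the Mest UMIs at 2 weeks in 1 cell. With sub-clusters of the members weighted equally the ratio of Mest was -0.80. In members of 5000 to 15000 UMIs the ratio of H19 was 0.22. Pleiotrophin (Ptn), a heparin-binding growth factor, stood at 67.3 and 15.1 CPM (-2.15), and 1 cell gave 13.1% of its UMIs at 2 weeks. With sub-clusters weighted equally the ratio of Ptn was -0.94, and it was below 0 in 3 of 5 sub-clusters. Rbp4, the carrier of retinol, stood at 182 and 32.5 CPM (-2.48).

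Other lists showed few genes past 2-fold. Mesenchymal transcription factors had 0 of 18, with a median of -0.06: Prrx1 stood at 489 and 487 CPM, Osr1 at 302 and 306 CPM and Ebf1 at 823 and 955 CPM. Complement genes had 1 of 13 (C7), with C3 at 3400 and 3651 CPM and Serping1, the C1 inhibitor, at 2837 and 2878 CPM. Coagulation genes had 0 of 10, and small leucine-rich proteoglycans 0 of 8. Of 33 listed TGF-beta and BMP genes, 13 were compared and 1 was at least 2-fold lower (Id2, -1.05). Of 25 listed Wnt genes, 8 were compared and 1 was at least 2-fold lower, the antagonist Dkk2 (-1.08). Of 39 Hox genes, 11 had at least 100 UMIs and 0 reached the level for comparison. Cycling cells were those with at least 2 UMIs of proliferation genes after thinning, leaving out Cdkn1a, Cdkn1b, Ccnd1 and Ccnd2. They were 3.67% of members at 2 weeks (1.84% to 6.47%) and 2.81% at 4 weeks (2.06% to 3.75%), against 36.7% and 22.5% of leukocytes. Before thinning the same cut was met by 47.5% and 31.9% of members and 59.2% and 40.6% of leukocytes, so these shares depend on depth.

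The spread of single genes among members was read from the Fano factor. The Fano factor, the variance over the mean of thinned UMIs, is near 1 for pure counting noise, and its median over 1674 genes was 1.10 at 2 weeks and 1.07 at 4 weeks. The genes with the highest values in both libraries were Mgp (51.7 and 38.3), an inhibitor of calcification, Saa3 (35.6 and 38.0) and Col3a1 (27.3 and 23.2), followed by Malat1, Cst3, Sparc, Igfbp5, Col1a1, Col1a2, Gsn, Pi16 and Sfrp4. Pi16 itself had 16.3 and 10.9, although its lower limit was set by the rule.

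Clustering of the members alone gave 8 sub-clusters, described by the genes that lead them and given no cell type name. Sub-cluster 1 was led by Scin and Plau, sub-cluster 2 by Thbs4 and Cilp, sub-cluster 3 by Krtdap, Dmkn and Sbsn, and sub-cluster 4 by Col4a6 and Aldh3a1. Sub-cluster 5, which was shallow (median 9809 and 6249 UMIs), was led by Penk and Cd74, sub-cluster 6 by Saa3 and Adam12, sub-cluster 7 by Cldn3 and Smpd3, and sub-cluster 8 by Cxcl9 and interferon genes. Pi16 was lowest in sub-cluster 2 at 2 weeks (2178 CPM) and in sub-cluster 6 at 4 weeks (1815 CPM), and highest in sub-cluster 7 at both (14422 and 10952 CPM). Different sub-clusters held most members at the 2 times. Sub-clusters 6 (95 of 303) and 4 (68 of 303) were the largest at 2 weeks, and sub-clusters 1 (476 of 1632) and 2 (382 of 1632) at 4 weeks. The genes that part the times are among those that form the sub-clusters, so their sizes are not compared.

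Ratios were therefore read again within the 7 sub-clusters with at least 15 cells in each library. Atf3 was lower at 4 weeks in 7 of 7, with ratios from -2.75 to -1.76, and so were Has1 (-3.91, from 3 UMIs at 4 weeks, to -1.16), Ptx3 (-3.39 to -0.65), Tnfaip6 (-1.61 to -0.51), Socs3 (-1.52 to -0.83) and Hspa5 (-1.32 to -0.13). Igfbp6 was higher in 7 of 7 (0.14 to 1.62), as were Ramp1 (0.18 to 2.28) and Fn1 (0.14 to 0.99). C7 had ratios of 0.18 to 1.46 in 5 sub-clusters, while it had 1 UMI at 2 weeks in sub-cluster 3 and 0 in sub-cluster 7. Col1a1 and Col3a1 were lower in 6 of 7, with ratios from -1.26 to 0.22 and from -1.13 to 0.11. These genes kept their direction in all or nearly all sub-clusters. For all of them but Ptx3 and C7, and for Cxcl1, the median over sub-clusters lay closer to 0 than the ratio over all members. Ramp1 had a median of 1.18 against 2.03, and Igfbp6 of 0.69 against 1.03. Ptx3 had -3.13 against -2.805, and C7 had 1.36 against 1.08.

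Other genes split. Saa3 was lower in 6 of 7 and had a ratio of 0.94 in sub-cluster 6, which it leads. H19 was lower in 5 of 6 (the other had 0 UMIs at 2 weeks), Rbp4 in 3 of 6 (2 of the other 3 had 3 UMIs at 2 weeks) and Cxcl10 in 5 of 7. The median of the immediate early list was below 0 in each of the 7 (-0.92 to -0.16). That of the inflammatory list ran from -1.04 to 0.21, that of the fibrillar collagen list from -0.43 to 0.19, and that of the adventitial progenitor list from -0.62 to 0.48. The 2-week cells behind each ratio are few, between 17 and 95 per sub-cluster.

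**Figure D5:**
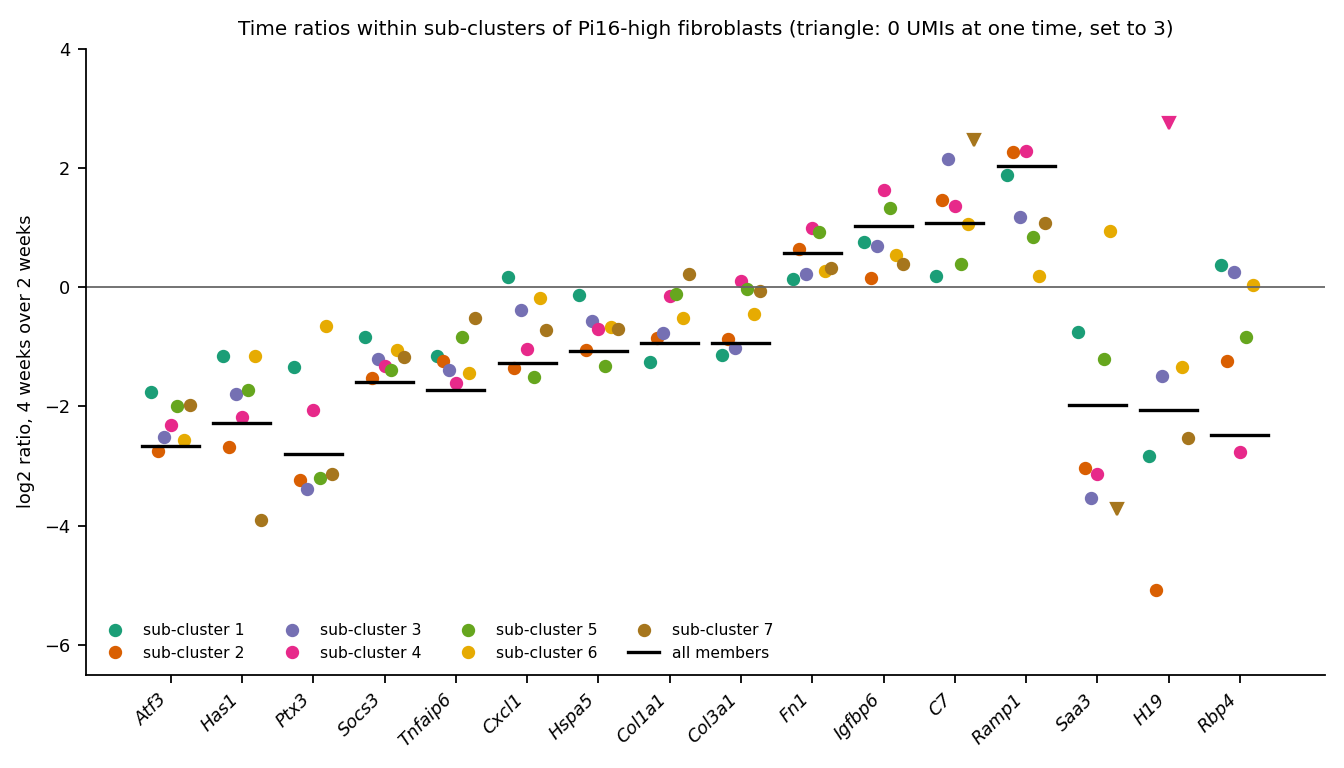
Log2 ratio of 4 weeks over 2 weeks within each of 7 sub-clusters (coloured points) and over all members (black lines) for 16 genes; a triangle marks a ratio with 0 UMIs at one time, computed with 3 counts in place of 0. Atf3, Has1 and Ptx3 lie below 0 in each sub-cluster shown and Igfbp6 and Ramp1 above 0, while Saa3, H19 and Rbp4 lie on both sides.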

How the data were processed

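The deposited files hold raw UMI counts per gene and barcode, 1 matrix per library. Per the file headers the software was Cell Ranger 4.0.0, and per the submitters' processing notes the build was mm10. No file column was left without a sample (0 columns). Kept cells had a mitochondrial share of up to 10%, 500 UMIs or more and 300 genes or more. Members and gene lists were chosen with earlier results of these data known. Counts were summed over the cells of a population and given as CPM. Ratios carry exact conditional binomial intervals at 95%, and a count of 0 was set to 3. A gene was compared with at least 100 UMIs and 50 CPM in either library, and called past a log2 ratio of 1. With 1 library per time no test was made. Genes named are the 12 highest and 12 lowest called (mitochondrial, ribosomal, haemoglobin, sex-linked and unnamed genes left out, likewise genes under a 10th of their leukocyte level) and up to 4 per list. All 29 gene lists and 20 marker lists are in the tables. For shares of cells with a UMI, cells were thinned to 2700 UMIs (seed 1). Doublets were not removed in the main values, and Scrublet was an alternative. Members were clustered on 1500 variable genes, 20 components and 15 neighbours (Leiden, resolution 0.5). Gene positions are from GENCODE M21, in which 98.7% of gene IDs matched. Promoters are from RefSeq (GRCm38.p6). The calls were run on simulated counts with counting noise only, which cannot check them against spread between cells, mice or libraries. Tools were scanpy 1.11.5, leidenalg 0.10.2, igraph 0.11.9, scikit-learn 1.9.0, scipy 1.17.1, pandas 2.3.3, numpy 2.4.6, matplotlib 3.10.9 and Python 3.11.15.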

Additional observations from a re-analysis of the deposited data

How the results depend on the processing

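With 1 library per time, values here show the effect of settings and not the spread between mice, and counting intervals are too narrow for that. No paired analysis was possible because each time is 1 library. The members' share of kept cells at 4 weeks was 21.6% with at most 5% mitochondrial UMIs, 21.7% with Pi16 of at least 2 and 18.7% with Pi16 of at least 5. Shares at 2 and 4 weeks were 10.4% and 22.3% without the Cthrc1 limit, and 4.33% and 16.3% with Cthrc1 at 0. With limits applied after thinning to 5000 UMIs, 521 and 1767 cells met them. These were 13.2% and 30.4% of the kept cells with at least 5000 UMIs, a smaller base than all kept cells. With limits scaled to the depth of each cell the 2-week share was 6.87%.

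Genes higher at 4 weeks numbered 13 without the Cthrc1 limit, 4 with limits scaled to the depth of each cell and 5 after thinning. Members of 5000 to 15000 UMIs gave 44 higher and 101 lower, a minimum of 20 UMIs with no CPM minimum gave 300 and 501, a log2 threshold of 0.58 gave 50 and 169, and sub-clusters weighted equally gave 34 lower. Against other stromal cells, 86 were higher and 49 lower without the Cthrc1 limit, 2 higher with Cthrc1 at 0, and 13 higher after thinning. The ratio of H19 turned to 0.22 in members of 5000 to 15000 UMIs and that of Saa3 to 0.47 with sub-clusters weighted equally. Igfbp6 was below 2-fold without the Cthrc1 limit (0.69), with limits scaled to the depth of each cell (0.86), after thinning (0.79) and with sub-clusters weighted equally (0.71).

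List medians turned sign without the Cthrc1 limit for the TGF-beta response (0.014), lipid handling (0.076), adipogenic progenitor (0.20), transcription factor (0.028) and signalling receptor (0.036) lists. With Cthrc1 at 0 the interferon list turned (0.058). After thinning the lipid (0.052), adipogenic (0.14) and transcription factor (0.005) lists turned. Median-of-ratios scaling turned complement (-0.007), equal weight of cells the TGF-beta response (0.025), and equal weight of sub-clusters the leucine-rich proteoglycans (-0.005). Members of 5000 to 15000 UMIs turned fibrillar collagen (0.10), leucine-rich proteoglycans (-0.053), hyaluronan (0.031), TGF-beta and BMP (0.011), interferon (0.088), MHC class I (0.16), antioxidant (-0.093) and signalling receptors (0.078). The cause was not tested. Of 247 gene values, 148 moved by less than their interval, 97 moved further and 2 turned sign. The immediate early median stayed below 0 in every setting run, from -0.72 to -0.54.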
